A study of Mus musculus with 12 samples.

Results

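The translation initiation and elongation factor genes were taken as every gene symbol of the scaled count table that begins with Eif or Eef followed by a digit, without Eif2s3x, Eif2s3y and names marked as pseudogenes. These names gave 87 genes among 56748 entries, and 64 of them reached 10 scaled counts in at least 3 of the 12 libraries. The other 23 stayed under that limit. They comprised 17 genes named Eif1ad with a number, Eif4e1b, Eef1akmt3, Eif2c5, Eif4ebp3, Eif4a3l1 and Eif4a3l2, and their highest count in any library was 5. Eef1akmt4 was just inside the limit, which it reached in 3 libraries.

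The libraries came from 2-month-old littermate mice that all carried the RiboTag allele and the i75-Rod-Cre transgene, a Cre driven by a rhodopsin promoter, so that ribosomes of rods were tagged in every group. Abca4 encodes a retinoid transporter of photoreceptor outer segments, and Abca4-/- animals (Abca4Ko) were compared with Abca4+/+ animals (control). For each genotype, 3 libraries were made from RNA bound to the tagged ribosomes (rod TRAP, from 10 ng RNA) and 3 from whole retina before the pull-down (5 ng RNA), and the mice had been perfused with cycloheximide to arrest elongating ribosomes. The number of animals behind a library is not given in the sources used here.

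Initiation factors bring the small ribosomal subunit and the initiator tRNA to a message and select its start codon. eIF2 carries the initiator tRNA and is reloaded with GTP by eIF2B. Kinases of the stress response phosphorylate eIF2 and so slow initiation. eIF3 is the multi-subunit scaffold on the small subunit, and the cap-binding complex eIF4F joins the ribosome to capped messages unless 4E-binding proteins hold its cap-binding subunit. In elongation, eEF1A delivers aminoacyl-tRNA, the eEF1B exchange subunits reload it, and eEF2 moves the ribosome along the message. eEF1A is made from 2 genes, the broadly used Eef1a1 and Eef1a2, which is known from mature neurons and muscle.

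The promoter stretches of the Eef1a pair are shown because that pair gave the greatest contrast between the fractions. Each is the 220 bases before the annotated start, read 5′ to 3′ on the strand of the gene, from RefSeq on the GRCm38.p6 build (Eef1a1 at chr9:78481725-78481944, Eef1a2 at chr2:181157016-181157235, both on the minus strand). Capitals mark the GC box (GGGCGG or its complement CCGCCC) and the CRX core (TAATCC or its complement GGATTA), the core bound by a homeodomain factor of photoreceptors.
Eef1a1: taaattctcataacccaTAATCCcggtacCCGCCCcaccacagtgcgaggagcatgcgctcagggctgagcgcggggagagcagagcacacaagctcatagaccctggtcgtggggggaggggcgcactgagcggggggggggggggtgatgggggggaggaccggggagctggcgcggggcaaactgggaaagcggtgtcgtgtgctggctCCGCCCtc
Eef1a2: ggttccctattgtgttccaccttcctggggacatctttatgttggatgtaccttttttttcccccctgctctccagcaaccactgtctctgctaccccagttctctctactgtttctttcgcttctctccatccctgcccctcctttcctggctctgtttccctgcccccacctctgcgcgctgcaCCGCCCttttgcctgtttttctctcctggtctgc

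The Eef1a1 stretch held 15 CpG, 2 GC boxes and 1 CRX core, and the Eef1a2 stretch held 4 CpG, 1 GC box and no CRX core. Over windows of 300 bases (250 before and 50 after the start), the CRX core occurred in 6 of the 51 members with a window, or 11.8%, against 8.1% of 27025 symbols. The 6 were Eef1a1, Eif1ad, Eif3d, Eif4e, Eif5a and Eif5a2. The GC box occurred in 38 of the 51 members, or 74.5%, against 38.2% of all symbols. The 51 members had passed the level limit, whereas the 27025 symbols were taken without one, so both motif comparisons set unlike groups side by side. Both strands were searched, and a match describes the letters only.

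Several properties of the libraries bear on what follows. The scaled counts summed to about the same total in every library of a fraction (17096515 to 17097707 in rod TRAP, 17860761 to 17862326 in retina), because the authors had scaled them. Gaps between the rounded values gave a clear scaling factor in 7 libraries, and the original depth of the other libraries is unknown. The label check on the deleted gene failed in part. Abca4 held 53193 to 61017 scaled counts in control rod TRAP and 37619 to 38929 in control retina, and 153 to 366 in the Abca4Ko libraries numbered 1 and 2, but the libraries labelled Abca4Ko replicate 3 held 13156 in rod TRAP and 8124 in retina. The counts of calls are therefore also given without these libraries. Of 20 rod markers, 20 were called higher in control rod TRAP than in control retina, and their summed TPM (a transcript level per length, relative to the library total) was 252173 to 275023 in the 6 rod TRAP libraries and 109557 to 143860 in the 6 retina libraries. Summed cone markers overlapped between the fractions (4498 to 6550 and 4456 to 6188 TPM), with 2 of 12 cone markers called higher and 10 lower.

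By summed TPM, the 64 genes made up 0.884% to 0.957% of each rod TRAP library and 1.04% to 1.09% of each retina library, so the 2 ranges did not overlap. Eef1a1 and Eef2 together supplied 28.4% to 32.1% of that sum in rod TRAP and 34.6% to 39.0% in retina. Eef1a1 was the member with the highest mean level in all 4 groups and Eef2 was next. In both rod TRAP groups Eif4g2 held the following place, with 779 ± 44.0 TPM in control (SD, n = 3), above Eif1 with 615 ± 7.54 TPM. In both retina groups Eif1 stood in that place, with 870 ± 31.4 TPM in control (SD, n = 3).

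The first comparison asked how the factor messages on rod ribosomes differ in level from those of the whole retina. Eef1a2 was almost absent from rod TRAP, and 3 of 6 eEF1 genes were called lower there and 1 higher. Of the genes of start codon selection and eIF2, 6 of 10 were called higher in rod TRAP, of eIF3 8 of 14, and of eIF4F and its helpers 9 of 11. Of 63 members tested in control, 34 were higher and 14 lower in rod TRAP at an adjusted p under 0.05 (limma on log2 CPM, counts relative to the library total, after TMM rescaling, which sets a common level for most genes, Benjamini-Hochberg over 16286 genes), and 15 were not called. That is 54.0% and 22.2% of the members, against 36.6% of all genes called higher and 38.8% called lower. Their median log2 fold change was 0.33, and that of all genes was -0.03. In 49 of the 63 the libraries of the 2 fractions did not overlap, against 79.7% of all genes. In bulk libraries, fewer cells of a type and less RNA per cell cannot be told apart, and the pull-down also selects ribosome-bound RNA, so cell type and ribosome loading cannot be told apart either.

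Scaling and base composition both moved with these values. Without the TMM rescaling, on the authors' own scaling, the median of all genes was -0.62 instead of -0.03 and the split of called members turned to 18 higher and 32 lower. Over all 16286 genes, 3415 were called higher and 9549 lower on that scaling. Every direction below is thus relative to the median gene, and 9 of the 34 called rises lay below zero on the authors' scaling, 3 of them (Eif2b1, Eif3g and Eif4h) as called falls. Across the 62 members with a value, the log2 fold change and the GC content of the longest coding transcript had a Spearman rho of -0.59, and across all 13317 genes with a value the rho was -0.49. Both are descriptions across genes, which share the same libraries. With the GC trend of all genes removed from each library, an alternative added after seeing the data, 37 members were higher and 14 lower, and 12 of the calls changed sign, 8 of them to a call in the opposite direction. In that fit 6018 of 13319 genes were called higher and 4870 lower. In all, 14 members stayed higher and 9 lower at an adjusted p under 0.05 on TMM rescaling, on the authors' scaling, on TPM and with the GC trend removed (Eef1aknmt has no GC value and Eif2ak2 was not tested on TPM). The 14 were Eef2kmt, Eif1a, Eif2a, Eif2ak3, Eif2s2, Eif3a, Eif3j1, Eif3j2, Eif3m, Eif4e3, Eif4g2, Eif4g3, Eif5 and Eif5b. The 9 were Eef1a2, Eef1aknmt, Eef1b2, Eef1g, Eef2k, Eif2ak2, Eif3f, Eif4ebp1 and Eif4ebp2. Eif2ak2 passed the level limit through the retina libraries alone, so its place among the falls was largely set by the filter. Eif4ebp1 held 8, 6 and 13 scaled counts in control rod TRAP and 44, 33 and 54 in control retina. It too reached the limit only with the retina libraries, so the filter favoured a fall. The matching count over all genes was not made. The part of GC content in the remaining calls was not tested further.

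**Figure D1:**
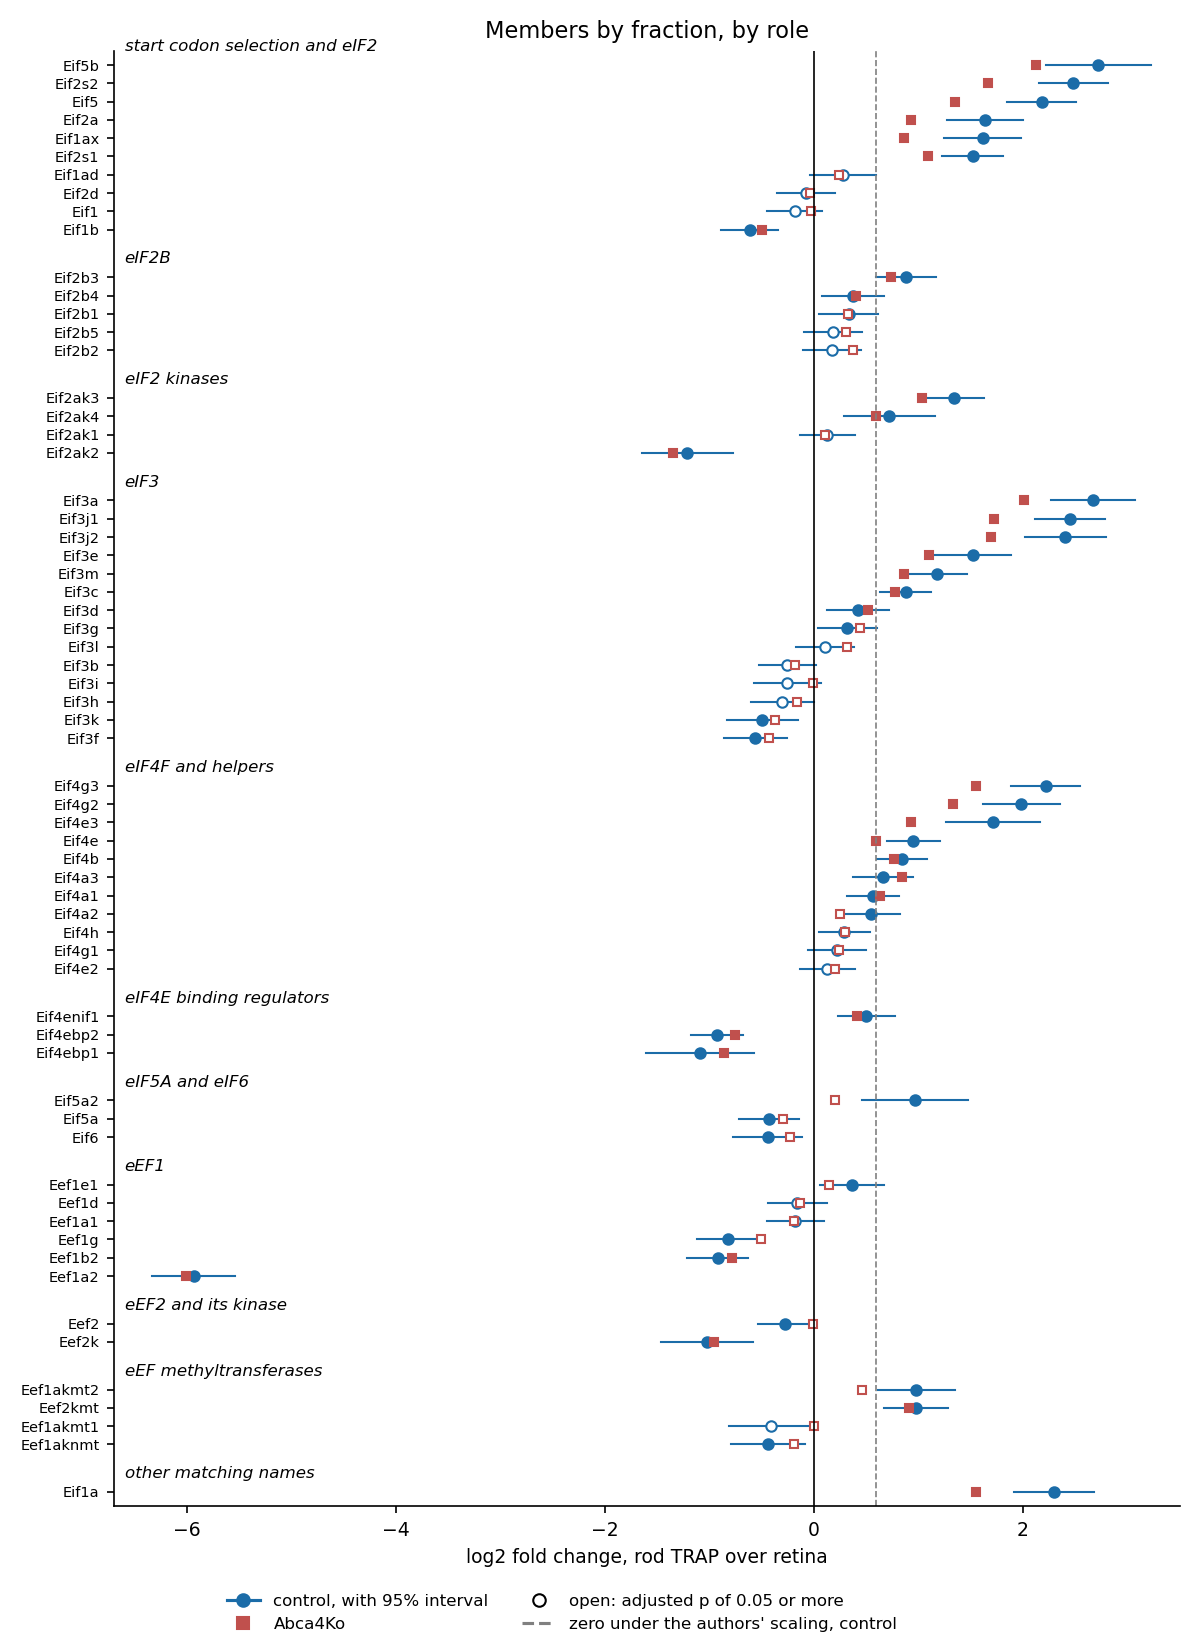
Log2 fold change of each member, rod TRAP over retina, grouped by role, in control (circles with 95% intervals, 3 against 3 libraries) and Abca4Ko (squares); filled symbols have an adjusted p under 0.05, and the dashed line marks zero under the authors' scaling in control. Eef1a2 stands alone near -6, and genes from Eif5b at 2.72 downwards lie to the right of both lines in the start codon, eIF3 and eIF4F groups.

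Among the genes of start codon selection and eIF2, 6 of 10 were higher, 1 was lower and the median log2 fold change was 1.57, which became 0.39 with the GC trend removed. Eif5b encodes the GTPase that joins the ribosomal subunits and had the greatest rise of all members. Its rescaled CPM were 52.6, 44.6 and 44.2 in control rod TRAP and 8.92, 8.03 and 4.15 in control retina, with the lowest retina value in replicate 3. The log2 fold change was 2.72 ± 0.23 (SE), a 6.59-fold difference (adjusted p = 2.35e-07 in limma), and it was 2.10 on the authors' scaling and 1.71 with the GC trend removed. Eif2s2 (eIF2 beta), Eif5 (the GTPase activator of eIF2), Eif2a, Eif1ax and Eif2s1 (eIF2 alpha) were also higher, by 2.48, 2.18, 1.64, 1.61 and 1.52 on the log2 scale, and Eif1ax and Eif2s1 came to -0.11 and -0.05 with the GC trend removed. Eif1b, a paralog of the start codon factor eIF1, fell by 0.61 on the log2 scale (SE 0.13, adjusted p = 0.000632 in limma). Its values of 62.1, 61.1 and 59.3 CPM in rod TRAP lay below the 91.1, 83.7 and 107 of retina, but with the GC trend removed the difference was -0.04 and not called. Eif1a, an eIF1A gene listed apart from Eif1ax, stood at 115, 120 and 116 CPM against 29.7, 25.3 and 16.9. It rose by 2.30 ± 0.18 (SE, adjusted p = 9.69e-08 in limma), or by 0.61 with the GC trend removed.

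For eIF2B, 3 of 5 subunit genes were higher and none was lower, with a median of 0.33. Eif2b3, which encodes the gamma subunit, held 38.3, 37.9 and 34.2 CPM in rod TRAP and 21.2, 17.9 and 20.2 in retina, without overlap. Its log2 fold change was 0.88 ± 0.13 (SE, adjusted p = 5.24e-05 in limma), and on the authors' scaling it was 0.25 with an adjusted p of 0.0918. On that scaling 3 of the 5 subunit genes were called lower, and with the GC trend removed all 5 were higher, so the complex had no direction common to these settings.

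The 4 eIF2 kinase genes diverged. Eif2ak3, which encodes PERK, the kinase of the endoplasmic reticulum stress response, held 84.9, 76.0 and 75.5 CPM in rod TRAP against 33.1, 32.7 and 26.8 in retina. It was higher by 1.34 ± 0.13 (SE, adjusted p = 8.82e-07 in limma), by 0.70 on the authors' scaling and by 1.64 with the GC trend removed. Eif2ak2, which encodes the double-stranded RNA sensor PKR, lay near the detection limit in rod TRAP with 2, 2 and 3 scaled counts, against 24, 33 and 16 in retina. It was called lower (log2 fold change -1.21 ± 0.20 SE, adjusted p = 0.000112 in limma), a value that depends on the pseudocount. Eif2ak4 (GCN2) was higher by 0.72 and Eif2ak1 (the heme-regulated kinase) was not called, at 0.13.

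The 14 eIF3 subunit genes split, with 8 higher, 2 lower and 4 not called, and a median of 0.37. On the authors' scaling 5 were higher and 7 lower. Eif3a, the largest scaffold subunit, held 131, 110 and 100 CPM in rod TRAP and 21.0, 19.7 and 12.6 in retina. Its log2 fold change was 2.67 ± 0.18 (SE, adjusted p = 3.61e-08 in limma), and 1.83 with the GC trend removed. Eif3j1 and Eif3j2 were higher by 2.45 and 2.41, but their transcripts share 2115 words of 50 bases, which is 39.4% of those of Eif3j1 and 90.8% of those of Eif3j2, so the split of reads between them is uncertain. Eif3e, Eif3m, Eif3c, Eif3d and Eif3g were also called higher, by 1.52, 1.18, 0.88, 0.42 and 0.32. On the authors' scaling Eif3d came to -0.22 and Eif3g was called lower, at -0.33, and Eif3e came to -0.13 with the GC trend removed. At the other end, Eif3f held 152, 136 and 170 CPM in rod TRAP and 228, 192 and 260 in retina, and fell by 0.56 on the log2 scale (SE 0.14, adjusted p = 0.00261 in limma). Eif3k fell by 0.49, and came to 0.09 with the GC trend removed. The subunits of one complex thus ranged over more than 3 log2 units.

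In the eIF4F group 9 of 11 genes were higher and none was lower, with a median of 0.66. On the authors' scaling 4 were higher and 3 lower. The scaffold genes differed most. Eif4g3 held 329, 312 and 271 CPM in rod TRAP against 65.6, 79.0 and 52.3 in retina, a log2 fold change of 2.22 ± 0.15 (SE, adjusted p = 3.77e-08 in limma) that was 2.57 with the GC trend removed. Eif4g2, which encodes a scaffold homolog without the eIF4E-binding site, was higher by 1.98, and Eif4g1 was not called at 0.22. The helicase genes Eif4a1 and Eif4a2 were called higher by 0.56 and 0.54, yet came to -0.08 and -0.10 on the authors' scaling, and Eif4a2 was called lower, at -1.12, with the GC trend removed. The cap-binding genes Eif4e3 and Eif4e were higher by 1.71 and 0.95, whereas Eif4e2 was not called at 0.13. With the GC trend removed Eif4e was called lower, at -0.66.

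Of the 3 genes whose products bind eIF4E, 2 were called lower and 1 higher. Eif4ebp1, a 4E-binding protein gene, had rescaled values of 0.586, 0.439 and 0.951 CPM in rod TRAP and 2.02, 1.39 and 2.49 in retina. Its log2 fold change was -1.09 ± 0.24 (SE, adjusted p = 0.00106 in limma). The rod TRAP values rest on 8, 6 and 13 scaled counts, and Eif4ebp1 reached the level limit only with the retina libraries. The size depends on the pseudocount and scaling, with -0.57 on log2(CPM + 2) and -1.52 on the authors' scaling. Eif4ebp2, the more abundant paralog, fell by 0.93. Eif4enif1, which encodes the eIF4E transporter, was called higher by 0.50 ± 0.12 (SE, adjusted p = 0.00264 in limma) with values of 71.2, 68.6 and 71.3 against 52.9, 52.9 and 43.6 CPM. On the authors' scaling it lay at -0.14 and was not called.

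All 3 eIF5A and eIF6 genes were called in control, and each had the opposite sign with the GC trend removed. Eif5a, which encodes the main eIF5A, the hypusine-bearing factor that helps ribosomes through difficult peptide bonds, held 202, 216 and 212 CPM in rod TRAP and 281, 242 and 335 in retina. It fell by 0.43 (SE 0.13, adjusted p = 0.00978 in limma) and was called higher, at 0.24, with the GC trend removed. Its paralog Eif5a2 was called higher by 0.97 ± 0.23 (SE, adjusted p = 0.00211 in limma), with 17.5, 16.4 and 20.5 CPM in rod TRAP and 12.1, 10.4 and 5.72 in retina. It has the lowest transcript GC content of the members, 38.8%, and with the GC trend removed it was called lower, at -0.87. Without control retina replicate 3 its rise was 0.54. Eif6, the factor that keeps ribosomal subunits apart, fell by 0.44 (SE 0.15, adjusted p = 0.0176 in limma), from 27.2, 22.7 and 30.5 CPM in retina to 20.9, 20.1 and 17.4 in rod TRAP. With the GC trend removed it was called higher, at 0.49. Leaving out control rod TRAP replicate 3 removed the call (adjusted p = 0.0919 in limma).

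In the eEF1 group 3 of 6 genes were lower and 1 was higher. Eef1b2 and Eef1g, exchange subunits of eEF1, fell by 0.92 and 0.82 on the log2 scale, and Eef1d was not called at -0.16. Eef1e1, whose product sits in the multi-tRNA synthetase complex, was called higher by 0.37 ± 0.14 (SE, adjusted p = 0.0311 in limma), from 39.0, 33.4 and 37.5 CPM in rod TRAP and 30.8, 24.2 and 30.3 in retina. That call was lost when any one of 4 control libraries was left out, with adjusted p of 0.0605 to 0.176 in limma. The lowest was without retina replicate 1 and the highest without retina replicate 2. The value was -0.27 on the authors' scaling, and with the GC trend removed Eef1e1 was called lower, at -0.56.

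Eef1a2 set the fractions apart more than any other member. Its TPM was 2.5, 4.5 and 3.4 in control rod TRAP, 2.0, 3.0 and 2.2 in Abca4Ko rod TRAP, 232, 331 and 317 in control retina and 139, 282 and 278 in Abca4Ko retina. Every rod TRAP library lay far below every retina library, and the lowest retina value was that of Abca4Ko replicate 1. The log2 fold change was -5.94 ± 0.18 (SE, adjusted p = 1.82e-10 in limma) in control, at rank 13 from the lowest of all genes tested, and -6.01 ± 0.19 (SE, adjusted p = 2.73e-08 in limma) in Abca4Ko, at rank 7. With the GC trend removed it was -4.75 in control. It has the highest transcript GC content of the members, 60.6%.

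Eef1a1 stood at 1830, 1636 and 1781 TPM in control rod TRAP, 2052, 2057 and 1946 in Abca4Ko rod TRAP, 2683, 2470 and 2239 in control retina and 2873, 2708 and 2680 in Abca4Ko retina. In TPM its fractions did not overlap. On rescaled counts the log2 fold change was -0.18 in control (95% interval -0.45 to 0.09) and was not called, whereas it was called lower on the authors' scaling, at -0.83, and on log2(TPM + 1), at -0.49. Without control retina replicate 3 it was called as well, at -0.33. Processed copies of Eef1a1 exist in the genome, and how reads from them were assigned is not given in the sources used here. The 2 coding transcripts share no word of 50 bases.

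Within a library the Eef1a2 to Eef1a1 ratio does not depend on scaling. Eef1a1 exceeded Eef1a2 by 364 to 1026 times in TPM in the rod TRAP libraries and by 7.06 to 20.7 times in retina. The mean log2 ratio was -9.38 ± 0.54 (SD, n = 6) in rod TRAP and -3.36 ± 0.56 (SD, n = 6) in retina, a difference of -6.02 (exact two-sided permutation test, p = 0.002165, the smallest that 924 splits allow). Those splits leave out the pairing of same-numbered libraries. Sign changes within the 6 same-numbered pairs gave p = 0.03125 (exact, the smallest possible). The 2 genes had been chosen with this contrast known, so both p-values describe these libraries only. Median Eef1a2 was 93.2 times higher in retina than in rod TRAP in control and 126 times in Abca4Ko. For summed markers the same ratio in control was 44.5 for ganglion cells, 40.1 for Müller glia, 27.8 for vascular cells, 26.1 for amacrine cells, 24.1 for RPE, 5.05 for bipolar cells, 4.95 for microglia, 1.15 for cones and 0.504 for rods. All 12 ganglion cell markers were called lower in control rod TRAP, and their sum was 16.7 to 25.3 TPM in rod TRAP and 723 to 1129 TPM in retina. All 12 amacrine cell markers were lower as well, with sums of 36.9 to 55.5 and 739.5 to 1462 TPM. None of the 12 markers of either list was at 0 in every library of a group. The part of these cells in the Eef1a2 level was not tested.

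**Figure D2:**
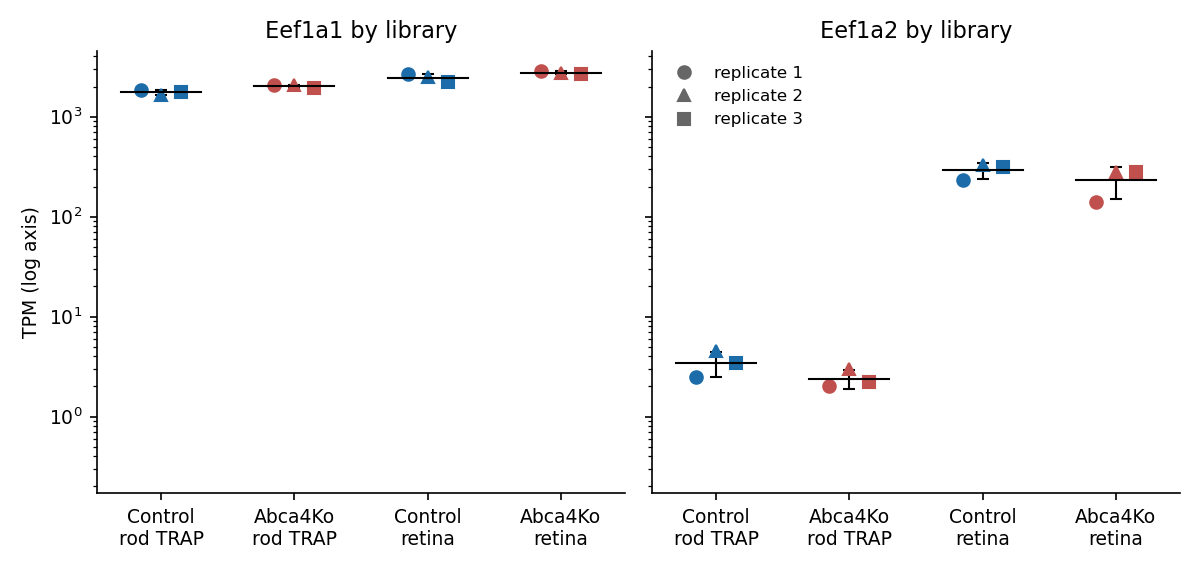
TPM of Eef1a1 and Eef1a2 in each of the 12 libraries on a log axis, with markers by replicate number, bars at the group mean and error bars of 1 SD (n = 3). Eef1a1 lies between 1636 and 2873 TPM throughout, while Eef1a2 lies at 2.0 to 4.5 TPM in rod TRAP and at 139 to 331 TPM in retina.

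Eef2 fell by 0.28 in control, a call at an adjusted p of 0.0447 in limma. That call was lost without control rod TRAP replicate 1, 2 or 3 (adjusted p of 0.0987, 0.139 and 0.107 in limma). With the GC trend removed Eef2 was called higher, at 0.58. Eef2k encodes the kinase that inhibits eEF2, and held 4.17, 5.20 and 3.22 CPM in rod TRAP against 7.63, 10.1 and 9.26 in retina. It fell by 1.03 on the log2 scale (SE 0.20, adjusted p = 0.000472 in limma), and by 0.81 with the GC trend removed. Among the methyltransferases of the elongation factors, Eef1akmt2 was called higher by 0.98 ± 0.17 (SE, adjusted p = 0.000151 in limma). It held 24.4, 22.3 and 21.2 CPM in rod TRAP against 13.6, 11.5 and 9.03 in retina, but was called lower, at -0.28, with the GC trend removed. Eef2kmt was also higher, by 0.98, and by 1.60 with the GC trend removed. Eef1aknmt fell by 0.44 (SE 0.16, adjusted p = 0.0258 in limma), with 10.3, 10.8 and 8.63 against 11.9, 13.7 and 15.2 CPM. Its call was lost without control rod TRAP replicate 1 (adjusted p = 0.0537 in limma) and without control rod TRAP replicate 3 (adjusted p = 0.124 in limma).

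The same comparison in Abca4Ko used 6 other libraries. Of 63 members, 27 were higher and 7 lower in rod TRAP, or 42.9% and 11.1%, against 30.4% of 16036 genes called higher and 33.7% called lower. The median of the members was 0.32, and in 42 of them the fractions did not overlap, against 69.4% of all genes. All 27 and all 7 were called in the same direction in control, and no member was called in opposite directions. The same count over all genes was not made, so this agreement is not shown to be particular to the members. On the authors' scaling 15 were higher and 24 lower, against 2282 and 7814 of 16036 genes, with the median of all genes at -0.49. The Spearman rho with GC content was -0.48 over 62 members and -0.42 over all genes with a value. Without both libraries labelled Abca4Ko replicate 3, 21 members were higher and 4 lower, against 3372 and 2344 of 13150 genes. With the replicate number as a block, 32 were higher and 10 lower, against 5521 and 5870 of 16036 genes.

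Read for the same genes, Eif5b was higher in Abca4Ko by 2.12, Eif3a by 2.01, Eif4g3 and Eif1a by 1.55, Eif2ak3 by 1.03, Eif2b3 by 0.74 and Eif4enif1 by 0.41 on the log2 scale, all called. Eif2ak2 (-1.35), Eef2k (-0.96), Eif4ebp1 (-0.87) and Eif1b (-0.50) were called lower. Here too Eif2ak2 passed the level limit through the retina libraries alone. Eif4ebp1, at 9, 13 and 9 scaled counts in Abca4Ko rod TRAP, reached it only with the retina libraries. Without both Abca4Ko replicate 3 libraries, Eif4enif1, Eif4ebp1 and Eef2k kept their signs with adjusted p of 0.145, 0.0614 and 0.0707 in limma. Single libraries also decided some of these calls. Eif1b was not called without rod TRAP replicate 2 or 3 (adjusted p = 0.110 and 0.0939 in limma), Eef2k without retina replicate 2 or 3 (0.0816 and 0.0617), and Eif4enif1 without rod TRAP replicate 2 or 3 or retina replicate 2 (0.0988, 0.0696 and 0.0779). Eif3f (-0.43), Eif6 (-0.23), Eef1aknmt (-0.19), Eef1e1 (0.15), Eif5a2 (0.20) and Eef1akmt2 (0.46) were not called. With the replicate block, Eif3f and Eef1akmt2 were called, at adjusted p of 0.0153 and 0.0118 in limma. In Abca4Ko retina, replicate 1 held 352 CPM of Eif3f where replicates 2 and 3 held 204 and 169, and without Abca4Ko retina replicate 3 Eif3f was called at -0.65 (adjusted p = 0.0406 in limma).

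Shares of paralogs within a family, in TPM of the same library, are free of the scaling. These families were chosen after the values were seen and carry no test. In the eIF4G family, Eif4g1 made up 5.12% to 6.04% in control rod TRAP and 15.2% to 18.3% in control retina, while Eif4g2 was the main transcript everywhere, with a mean of 85.0% in control rod TRAP and 76.2% in control retina. In Abca4Ko the Eif4g1 share was 5.51% to 6.87% in rod TRAP and 7.69% to 15.7% in retina, again without overlap. Eif4e2 made up 16.2% to 18.6% of the eIF4E family in control rod TRAP and 24.5% to 29.4% in control retina. Eif2ak3 was the main eIF2 kinase transcript in rod TRAP, at 57.5% to 62.4% in control and 55.1% to 61.4% in Abca4Ko, against 39.3% to 44.3% and 42.6% to 45.8% in retina. Eif2ak1 filled most of the difference, with 25.9% to 29.3% in control rod TRAP and 39.8% to 49.8% in control retina. Eif1a held 64.8% to 68.8% of the sum of Eif1a and Eif1ax in control rod TRAP and 39.0% to 57.1% in control retina. The shares are not free of base composition. Transcript GC content was 40.0% for Eif1a and 39.7% for Eif1ax, and 51.2% for Eif2ak3 and 49.2% for Eif2ak1, but 54.2% for Eif4g1 against 43.2% for Eif4g2, 49.3% for Eif4e2 against 40.5% for Eif4e, and 60.6% for Eef1a2 against 47.4% for Eef1a1. The shares of Eif4a1 and Eif4ebp1 overlapped between the fractions in both genotypes.

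**Figure D3:**
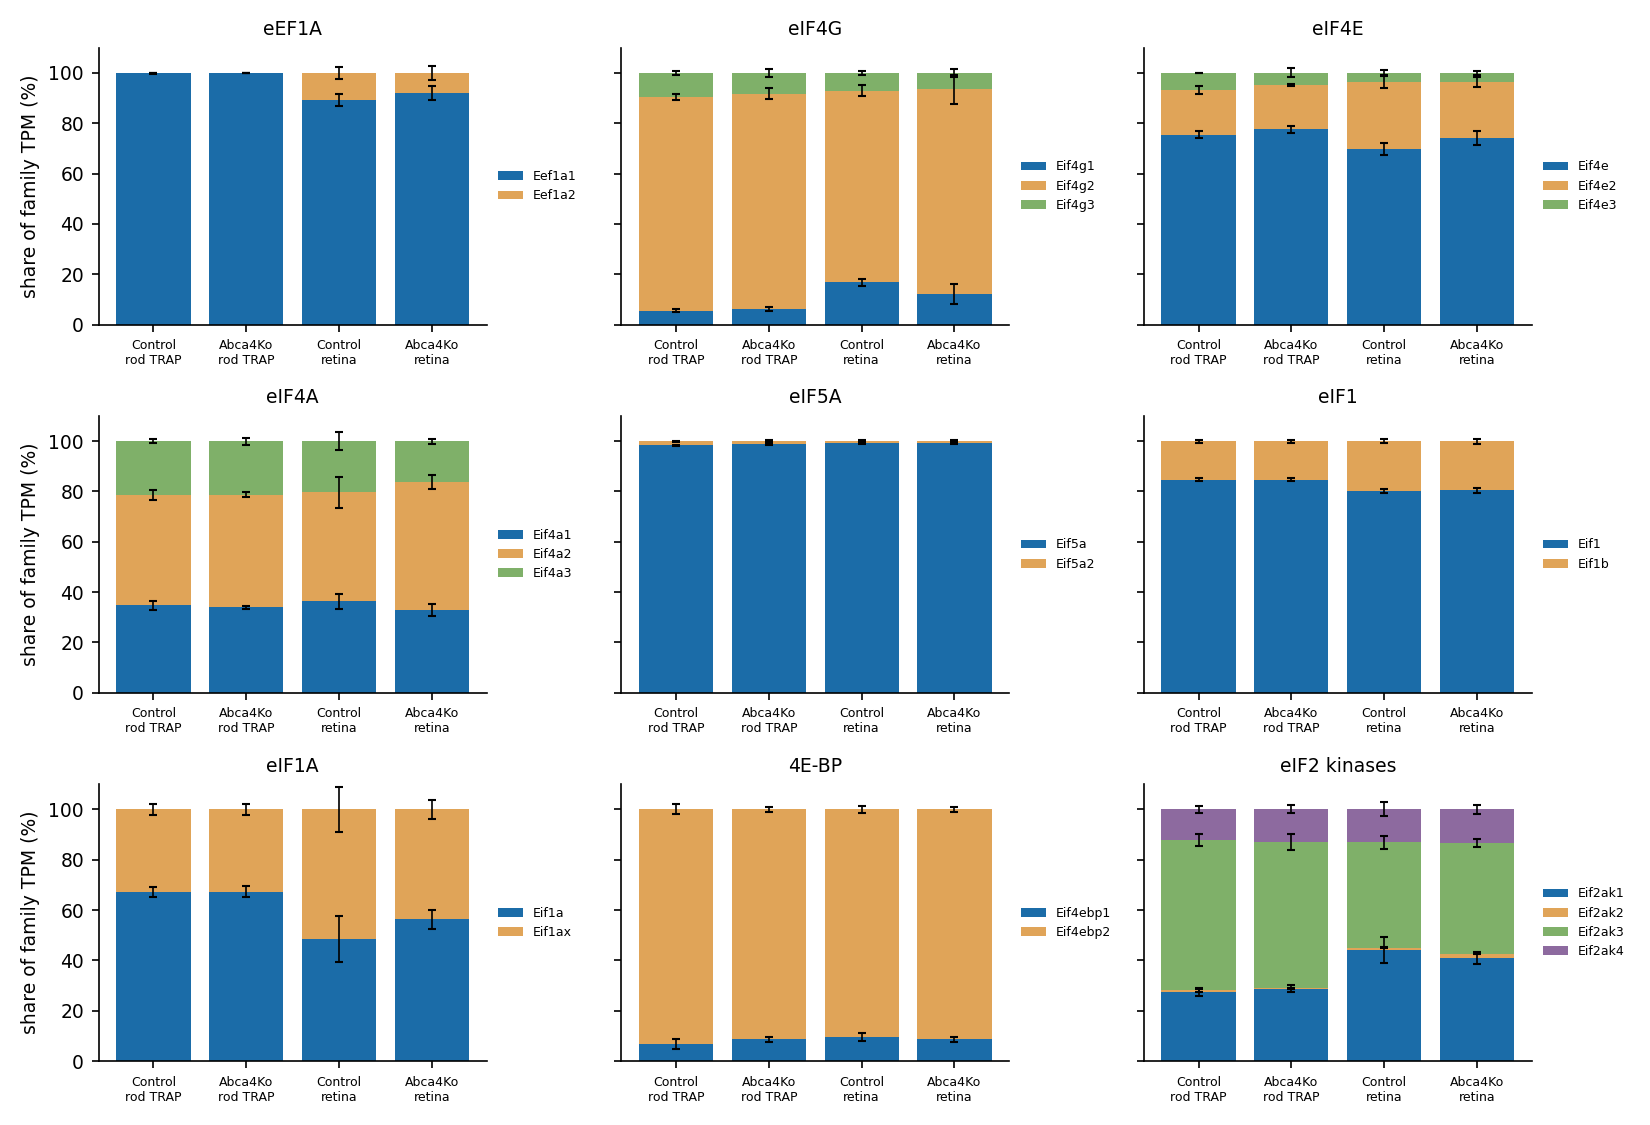
Mean share of each paralog in the summed TPM of its family, in percent, by group, stacked to 100, with error bars of 1 SD over 3 libraries. Eef1a2 shrinks from a mean of 10.7% in control retina to 0.200% in control rod TRAP, and Eif2ak3 grows from 41.8% to 59.7%.

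Other lists of the translation machinery give the members' values a setting in control. Cytosolic ribosomal protein genes were mostly lower in rod TRAP, with 69 of 84 lower and 3 higher and a median log2 fold change of -0.88, and proteasome subunit genes had 17 of 37 higher and 3 lower, with a median of 0.25. Termination and recycling genes had 6 of 9 higher and 1 lower (median 0.78), and cap, poly(A) and scanning partners had 11 of 14 higher and 1 lower (median 0.89). Mitochondrial translation factors had 6 of 10 higher and none lower (median 0.82), hypusine and diphthamide enzymes 4 of 9 higher and 1 lower (median 0.15), the mTORC1 and S6 kinase arm 6 of 13 higher and 3 lower (median 0.20), and the eIF2 phosphorylation arm 2 of 11 higher and 4 lower (median -0.20). Over all genes 36.6% were higher and 38.8% lower. On the authors' scaling the medians were -1.53 for the ribosomal protein genes and -0.40 for the proteasome (3 higher and 23 lower), 0.15 for termination, 0.25 for the cap partners, 0.22 for the mitochondrial factors, -0.49 for the hypusine and diphthamide enzymes, -0.44 for the mTORC1 arm and -0.84 for the eIF2 phosphorylation arm, against -0.62 for all genes. With the GC trend removed the ribosomal protein genes had a median of -0.46, the proteasome 0.38, termination 0.98 and the cap partners 0.795. The mitochondrial factors and the mTORC1 arm then had 0.77, and the hypusine and diphthamide enzymes 0.20. The eIF2 phosphorylation arm turned to 0.37, against 0.17 for all genes.

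The greatest called change in each list was that of Larp4, a poly(A)-associated protein gene (3.43), Rps6kb1, the S6 kinase gene (2.89), Abce1, the ribosome recycling ATPase gene (2.73), Mtif2, the mitochondrial initiation factor gene (2.67), Dph6, a diphthamide synthesis gene (1.46), and Atf5, a transcription factor gene translated under eIF2 phosphorylation (-2.84), all with limma adjusted p of at most 6.05e-06. Atf5 held 5.3, 4.8 and 4.3 TPM in control rod TRAP and 43.3, 49.7 and 52.1 TPM in control retina. Larp4 held 41.6, 42.5 and 36.2 TPM against 3.7, 6.1 and 3.3 TPM. Both ran without overlap of the fractions, in opposite directions.

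The second comparison set the libraries labelled Abca4Ko against control in rod TRAP, to ask whether loss of Abca4 changed the factors' messages on rod ribosomes. Of 61 members tested in rod TRAP none was called in limma, against 1.09% of 13104 genes, and 7 had an unadjusted p under 0.05. The share of all genes at an unadjusted p under 0.05 was not counted, here, in retina or for the interaction. The median log2 fold change of the members, Abca4Ko over control, was 0.03. In all, 60 of 61 members lay within 0.5 of zero, and all 61 of the 95% intervals lay within 1 of zero. Without the library labelled Abca4Ko replicate 3, which held Abca4, none was called, 10 had an unadjusted p under 0.05, the median was 0.07, and all 61 members lay within 0.5 and all 61 intervals within 1 of zero. Eif4e3, a cap-binding homolog, had the smallest p. It held 10.4, 15.9 and 9.40 CPM in Abca4Ko and 18.4, 16.8 and 16.9 in control, a log2 fold change of -0.57 ± 0.17 (SE, adjusted p = 0.228 in limma). Without Abca4Ko rod TRAP replicate 2, the highest of its group, the value was -0.79 with an adjusted p of 0.0311 in limma. In that fit 106 of 12886 genes were called. Eif1a held 113, 107 and 110 CPM in Abca4Ko against 91.8, 95.2 and 92.4 in control, at 0.24 ± 0.08 (SE, adjusted p = 0.239 in limma). Without Abca4Ko rod TRAP replicate 1 Eif1a was called at 0.22 (adjusted p = 0.0493 in limma), and Eif4ebp2 was called at 0.27 (adjusted p = 0.0345 in limma). Leaving out that library raised the calls over all genes to 591 of 12936, from 143 of 13104. Eif3l came next by p, at 0.26 ± 0.11 (SE, adjusted p = 0.415 in limma), with 66.2, 50.6 and 59.5 CPM in Abca4Ko and 45.9, 48.8 and 51.1 in control. Eef1a1 was at 0.24 (95% interval 0.01 to 0.48, adjusted p = 0.469 in limma) and Eef1a2 at -0.32 (95% interval -0.79 to 0.14, adjusted p = 0.636 in limma). The Eef1a2 to Eef1a1 log2 ratio differed by -0.72 between genotypes in rod TRAP (exact two-sided permutation test, p = 0.2, where 3 against 3 libraries cannot go below 0.1).

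In whole retina none of 64 members was called in limma, against 0.106% of 16964 genes, and 9 had an unadjusted p under 0.05. The median was -0.07, and 52 of 64 intervals lay within 1 of zero, so changes beyond that size were not bounded for the other 12. Without the library labelled Abca4Ko replicate 3, none of 63 was called, 4 had an unadjusted p under 0.05, the median was 0.05 and 51 intervals lay within 1 of zero. The 3 members of smallest p were Eif1a, Eif5 and Eif2s2. Eif1a held 66.7, 42.7 and 56.2 CPM in Abca4Ko retina and 37.1, 31.7 and 21.1 in control retina, at 0.88 ± 0.24 (SE, adjusted p = 0.3998 in limma). Eif5 was at 0.71 ± 0.23 (SE) with 85.6, 53.7 and 88.4 against 51.6, 50.8 and 35.1, and Eif2s2 at 0.66 ± 0.22 (SE) with 26.5, 20.7 and 31.1 against 19.1, 16.9 and 13.0. In each of the 3, control replicate 3 was the lowest library. Eef1a1 was at 0.15 (95% interval -0.36 to 0.66) and Eef1a2 at -0.36 (95% interval -0.82 to 0.10), and their log2 ratio differed by -0.55 (exact two-sided permutation test, p = 0.3). Without Abca4Ko retina replicate 1 that difference was -0.18. The same library had the lowest summed markers of the 6 retina libraries for ganglion cells (723 TPM, the others 1037 to 1129), amacrine cells (739.5, the others 1090 to 1462) and Müller glia (3319, the others 4136 to 6395), and also for bipolar cells, microglia, vascular cells and RPE. Their part in the ratio was not tested.

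The retina values followed base composition closely. The Spearman rho between transcript GC content and the genotype log2 fold change was -0.80 over 63 members and -0.69 over 13671 genes, whereas in rod TRAP it was 0.12 over 60 members and 0.12 over 10783 genes. Of the 32 members at or below the median GC content of 50.1%, 24 lay above zero, and all 9 with an unadjusted p under 0.05 were among them. Of the 31 above that GC content, 2 lay above zero. The trend was also present between libraries of one group. For control retina the rho of GC content with a library's deviation from its group mean was -0.70, -0.51 and 0.71 over the 63 members in replicates 1, 2 and 3, and for Abca4Ko retina it was -0.15, 0.63 and -0.39. In rod TRAP the 6 values ran from -0.17 to 0.23. With the GC trend removed, 1 member had an unadjusted p under 0.05 in retina, and 3 genes in place of 18 were called in the whole table. In rod TRAP the log2 fold change had a rho of -0.45 with transcript length over the members and -0.27 over all genes.

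**Figure D4:**
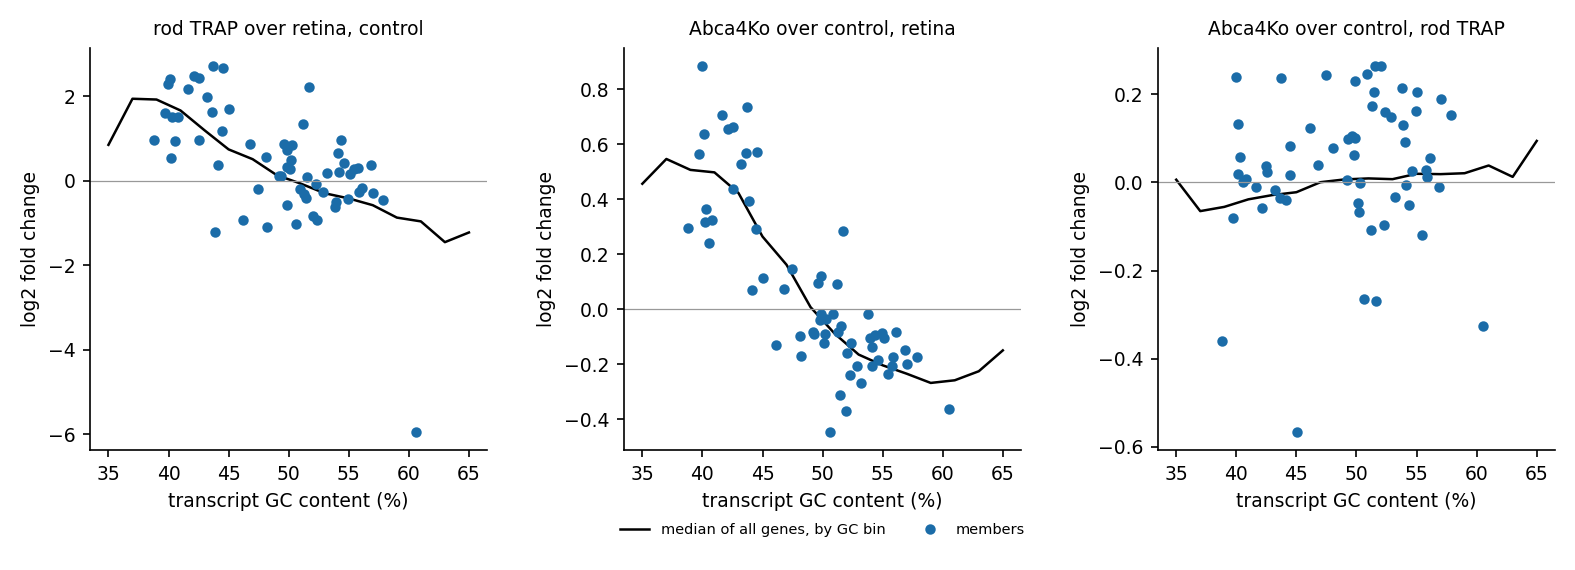
Log2 fold change of each member (points) against the GC content of its longest coding transcript, in percent, for the fractions in control and for the genotypes in retina and in rod TRAP, with the median of all tested genes in bins of GC content (line, bins of at least 20 genes). The vertical scales differ between panels. The points decline with GC content in the left and middle panels (rho -0.59 and -0.80) and scatter about zero in the right panel (rho 0.12). In the left panel some lie far from the line on either side. Examples are Eif4g3 at 2.22, where the line is at -0.06, and Eef1a2 at -5.94, where it is at -0.96.

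A test of the difference itself, the interaction of genotype and fraction over all 12 libraries, called none of 64 members in limma, against 0.00579% of 17273 genes (1 gene), with 8 members at an unadjusted p under 0.05. The 3 of smallest p were Eif2s2 (-0.74 ± 0.24 SE), Eif5 (-0.74 ± 0.28 SE) and Eif3j1 (-0.65 ± 0.25 SE), each with an adjusted p of 0.407. Their transcripts have GC contents of 42.1%, 41.7% and 42.5%. In rod TRAP Eif3j1 held 40.5, 38.1 and 37.1 CPM in Abca4Ko and 39.2, 39.8 and 33.9 in control. Eef1a1 and Eef1a2 gave 0.07 and 0.01. Without both libraries labelled Abca4Ko replicate 3 no member was called either.

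**Figure D5:**
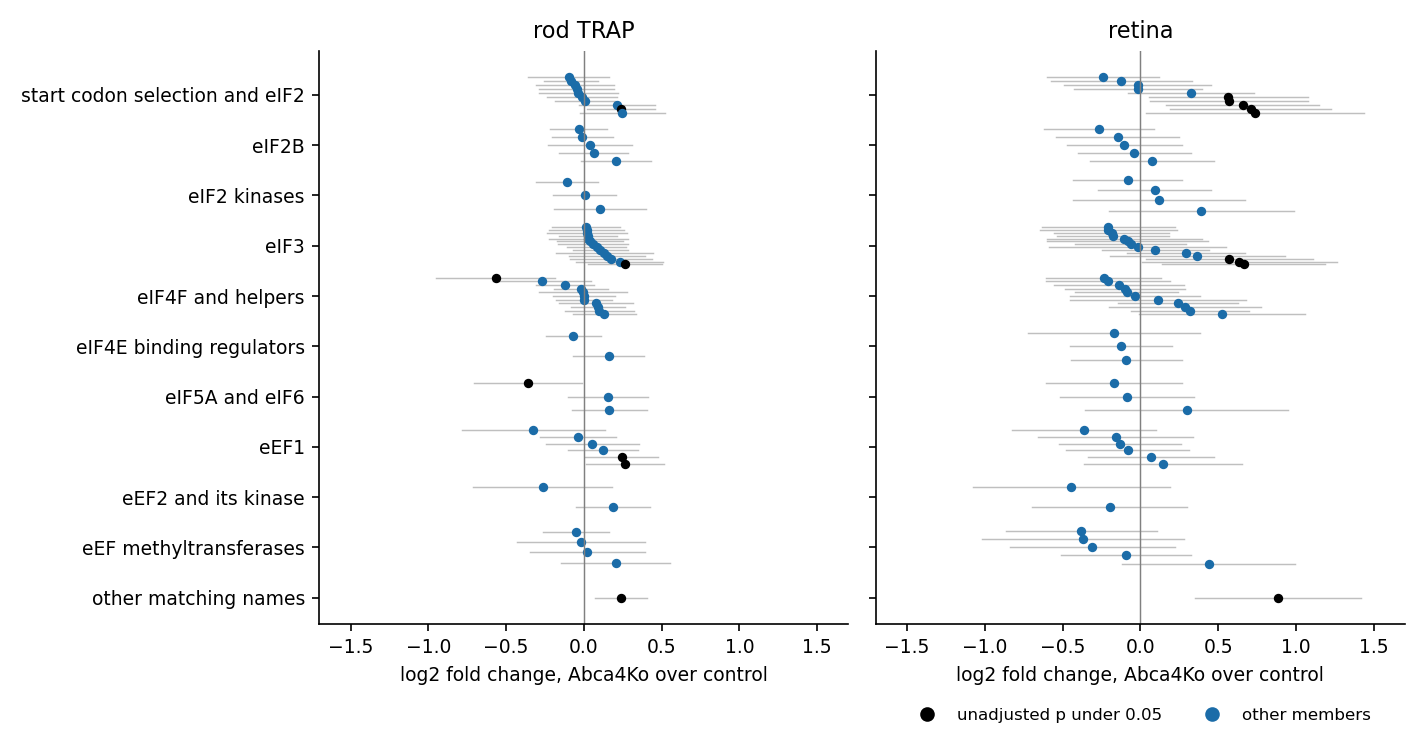
Log2 fold change of each member, Abca4Ko over control, by role in rod TRAP and in retina, with 95% intervals in grey (3 against 3 libraries) and members with an unadjusted p under 0.05 in black. In rod TRAP 60 of 61 points lie within 0.5 of zero, and in retina 54 of 64 do, with the black points to the right of zero.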

How the data were processed

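RNA from rod TRAP and retina of Abca4Ko and control mice was sequenced as 12 libraries, 3 in each of 4 groups. Per the labels, the submitters' processing notes list CASAVA 1.8.2, HISAT2, DESeq2, edgeR and the GRCm39 build, without their order. The deposited count table holds a score for each gene, that is, counts which the authors scaled to a common total per fraction and rounded. A second table deposited by the authors holds TPM to 1 decimal. Over 10277 genes, all 12 libraries matched between both tables by their highest correlation.

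As scaled values are not raw counts, count models were not used. Values were rescaled by TMM, expressed as CPM, filtered (10 scaled counts in at least 3 fitted libraries) and fitted as log2(CPM + 0.5) with limma 3.58.1 (trend, robust) in R 4.3.3, two-sided, on the whole table, with Benjamini-Hochberg adjustment and a threshold of 0.05. The scripts were tested on simulated data. Values are given as mean ± SD or with the SE of the fit. GC content and length came from the longest coding transcript of GENCODE M21 (GRCm38, another build, matched by symbol). Where nothing in the labels ties a library to separate animals, p-values measure the spread between libraries.

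The members, roles and gene lists were chosen with earlier results of these data known. Named were Eef1a1 and Eef1a2, in each role the called members of greatest rise and fall in control, the members of lowest and highest log2 fold change, any called oppositely in the 2 fraction comparisons, the called genes and the 3 smallest p of each genotype and interaction test, and the called gene of greatest change in each pathway list. Other members are named with values to describe their role or complex. Deviations from the group mean of same-numbered rod TRAP and retina libraries correlated (r = 0.16 to 0.433 in 6 pairs), so the numbers were taken to pair the fractions. Those of the 2 genotypes did not pair. Alternatives comprised the authors' scaling, TPM, a pseudocount of 2, no filter, left-out libraries, the replicate block, 1 fit of all 12 libraries and, added after seeing the data, removal of the GC trend.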

Additional observations from a re-analysis of the deposited data

How the results depend on the processing

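In control, 34 members higher and 14 lower became 18 and 32 on the authors' scaling and 22 and 21 on log2(TPM + 1). Over all genes, 5968 higher and 6317 lower of 16286 became 3415 and 9549, and 3868 and 6297 of 14442. Leaving out both libraries numbered 1 gave 9 lower, against 2924 of 13133 genes. Leaving out single control libraries gave 28 to 35 higher and 11 to 19 lower. Those fits called 5196 to 5611 genes higher and 3630 to 6005 lower, of 13446 to 16167. In Abca4Ko, 27 higher and 7 lower became 15 and 24 on the authors' scaling, 21 and 16 on log2(TPM + 1), 21 and 4 without both replicate 3 libraries, and 38 and 12 with the GC trend removed and the replicate block. In the same order, all genes gave 2282 and 7814 of 16036, 2747 and 4621 of 14109, 3372 and 2344 of 13150, and 5771 and 4517 of 13065. Leaving out single Abca4Ko libraries gave 24 to 27 higher and 5 to 8 lower. All genes then gave 3852 to 4629 higher and 2592 to 5191 lower, of 13396 to 15936. The replicate block gave 33 higher and 16 lower in control, against 5984 and 6385 of 16286 genes. In Abca4Ko it gave 32 and 10, against 5521 and 5870 of 16036 genes. Beside Eif3f and Eef1akmt2 the block changed no call of a named gene. For the genotypes the numbers did not pair the libraries, and the block called 0 members in rod TRAP, in retina and in the interaction. No member was called by genotype in retina or in the interaction under any alternative. In rod TRAP 2 higher (without Abca4Ko replicate 1) and 1 lower (without Abca4Ko replicate 2) were the exceptions, so single left-out libraries gave 0 to 2 higher and 0 to 1 lower. Over all genes those fits called 591 of 12936 and 106 of 12886.

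The Eef1a2 to Eef1a1 log2 ratio by fraction was -6.22 to -5.89 with single libraries left out, and sign changes within the 6 same-numbered pairs gave p = 0.03125 (replicate block, exact, the smallest possible). By genotype it was -0.97 to -0.46 in rod TRAP and -0.77 to -0.18 in retina.

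Signs turned as follows, and the cause was not tested. Of all called members, 9 turned in control and 3 in Abca4Ko on the authors' scaling (Eif2b4, Eif3d and Eif4enif1 in both, and in control Eef1e1, Eif2b1, Eif3g, Eif4a1, Eif4a2 and Eif4h), 2 in control on log2(TPM + 1) (Eif3g and Eif4h), and 12 in control (Eef1akmt2, Eef1e1, Eef2, Eif1ax, Eif2s1, Eif3e, Eif3k, Eif4a2, Eif4e, Eif5a, Eif5a2 and Eif6) and 2 in Abca4Ko (Eif1ax and Eif4e) with the GC trend removed. Among the genes named by rule, called or not, Eif4enif1 on the authors' scaling came to -0.14 in control and -0.13 in Abca4Ko, Eef1e1 to -0.27 and -0.39, and in Abca4Ko Eif5a2 to -0.32 and Eef1akmt2 to -0.067. Eif5a2 was at -0.034 on log2(TPM + 1) in Abca4Ko. With the GC trend removed, with or without the replicate block, Eif5a2 came to -0.87 in control and -0.99 in Abca4Ko, Eif6 to 0.49 and 0.50, Eef1e1 to -0.56 and -0.39, and Eef1akmt2 to -0.28 and -0.31. The interaction of Eef1a2 came to -0.26 with the GC trend removed and to -0.21 (without Abca4Ko retina 1) to 0.18 (without control rod TRAP 2) with single libraries left out. That of Eef1a1 came to -0.075 (without Abca4Ko retina 3) to 0.23 (without Abca4Ko retina 1), and to -0.0092 without both Abca4Ko replicate 3 libraries. With single libraries left out, Eef1aknmt by fraction in Abca4Ko came to -0.45 to 0.043 (without retina 1 and rod TRAP 1), and Eef1a1 by genotype in retina to -0.039 to 0.28 (without Abca4Ko retina 1 and 3). None of these interaction or genotype values was called.

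Depth limits Eif2ak2 and Eif4ebp1, whose rod TRAP values rest on few counts. The TRAP and retina inputs differed in RNA amount as well as in fraction, and these cannot be told apart.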
